A study of Oryza sativa Japonica Group with 6 samples.

Results

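Endoglucanase genes and 1 xyloglucan endotransglucosylase gene were examined on rice anther arrays. The gene table lists 15 rice genes with a symbol or synonym of the form GLU plus a number, CEL9 plus a letter or XTH plus a number, and 14 of them had a probe set, among 17905 genes with one on the array. Of these genes 14 carry a GLU or CEL9 name and 1, XTH8, an XTH name, so the xyloglucan enzymes are represented by a single gene. GLU3 had no probe set paired with it and was not analysed here. GLU12 had 2 probe sets and the other 13 genes 1 each, which makes 15 probe sets.

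Plant endo-1,4-beta-glucanases of glycoside hydrolase family 9 cut the internal links of glucan chains in the cell wall. Secreted forms are associated with loosening and breakdown of the wall, and membrane-anchored forms, of which KORRIGAN of Arabidopsis is the best known, are needed for normal cellulose synthesis. Xyloglucan endotransglucosylases cut and rejoin the xyloglucan chains that lie between cellulose fibrils. Auxin has long been linked to wall loosening during growth, and walls in the anther are degraded and remodelled when the filament elongates and the anther opens.

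The study set the dao mutant against wild type, both labelled as a japonica variety. Total RNA came from mature anthers at anthesis, from plants grown in the field, and 3 arrays were labelled dao and 3 wild type. DAO, the dioxygenase for auxin oxidation, inactivates the auxin indole-3-acetic acid, and no source used here describes the lesion of the mutant. The labels call the samples biological replicates without saying whether they came from separate plants, so p-values measure the spread between these samples. A free-text line of the labels speaks of seedlings, and of Epi-df for the dao samples, against the titles and tissue fields.

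Arrays were alike in scale, with medians of the deposited linear intensity from 8.80 to 9.31, and precision is limited by having 3 arrays a group. DAO had intensities of 1551, 1168 and 1391 on the arrays labelled dao, against 480, 883 and 686 in wild type. The mutant's own gene was thus called higher on the arrays labelled dao (log2 1.04, SE 0.22, adjusted p = 0.0251 in limma), and with the lesion and the probes' place unknown its signal does not check the labels. The pollen genes EXPB9, EXPB10 and ADF9 were bright in both groups, with a summed intensity of 21363, 19545 and 21025 on the dao arrays and 24670, 22679 and 23712 in wild type. Each was slightly lower in dao, at log2 -0.16, -0.24 and -0.23 in that order (adjusted p = 0.105, 0.284 and 0.07 in limma). EXPB9 and ADF9 were lower on every dao array, as were 13.5% of all tested probe sets. The arrays numbered 3 gave intermediate values: of probe sets at least 2-fold apart between replicates 1 and 2, replicate 3 lay between them in 98.9% of dao and 98.6% of wild-type cases. For the other replicates that share ran from 3.07% to 31.9%, and with no limit on the difference replicate 3 was intermediate in 55.8% of dao and 53.1% of wild-type cases. Every n = 3, SD and p-value here counts replicate 3 as independent, and p-values are too small if it is not. Calls were made with limma at 2 limits, a Benjamini-Hochberg adjusted p of at most 0.05 and a difference of at least 2-fold, and 3.37% of the 34355 probe sets tested passed, 2.03% higher and 1.34% lower in dao. Without both arrays numbered 3 limma called 0 probe sets, with 3481 at an unadjusted p under 0.05, so no call below is kept without them.

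GLU10 and CEL9D rose in dao anthers, and no member passed in the other direction. Of the 15 probe sets, 12 passed the filter on dim signals, which covers 11 genes, and 2 of these 12 were past the threshold. Because the filter uses the mean of all arrays, a dim gene can pass it through the group where it is brighter, so the shares of the 12 are descriptions only. The median log2 difference of the 12 was 0.70, against -0.01 over all tested probe sets and 0.11 over all tested genes, each by its brightest probe set. A positive difference was found for 10 of the 12, against 49.3% of all tested probe sets and 62.4% of tested genes.

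CEL9D, also named GLU1, encodes a putative membrane-anchored endoglucanase that rice needs for normal internode elongation and cellulose content. Its intensity was 239, 170 and 220 on the dao arrays, against 84.1, 131 and 97.0 on the wild-type arrays. The groups did not overlap, and the lowest dao array and the highest wild-type array were both those numbered 2. The mean was 210 ± 36.0 in dao and 104 ± 24.2 in wild type (SD, n = 3 each), a rise of 1.02 on the log2 scale in limma (SE 0.20, 95% interval 0.56 to 1.48, adjusted p = 0.0214). The difference lies just over the 2-fold limit. It was 0.96 after quantile normalization, 0.83 on log2(intensity + 32) and 0.88 without wild-type replicate 1, where the adjusted p held but the fold did not. The call was also lost without wild-type replicate 3 or dao replicate 1 or 3 (0.92 to 0.98). Without both arrays numbered 1 the log2 difference was 0.78 (adjusted p = 0.0725 in limma).

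GLU10, a further gene of the endoglucanase family, gave a dim signal of 28.9, 19.5 and 26.3 on the dao arrays, against 8.37, 13.8 and 9.64 on the wild-type arrays. Every dao array again lay above every wild-type array, and the arrays numbered 2 were closest to each other. The mean was 24.9 ± 4.87 in dao and 10.6 ± 2.84 in wild type (SD, n = 3 each), which is 2.37-fold (log2 1.25, SE 0.23, 95% interval 0.71 to 1.78, adjusted p = 0.0182 in limma). With 32 added to every intensity, which shrinks the folds of dim genes, the log2 difference was 0.42 and the call was lost. By the adjusted p in limma the call was lost too without wild-type replicate 3 (log2 1.19, adjusted p = 0.0973). The same held without dao replicate 1 (1.13, adjusted p = 0.0669) or 3 (1.20, adjusted p = 0.0936). Without both arrays numbered 1 the log2 difference was 0.97 (adjusted p = 0.0629), past neither limit.

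**Figure D1:**
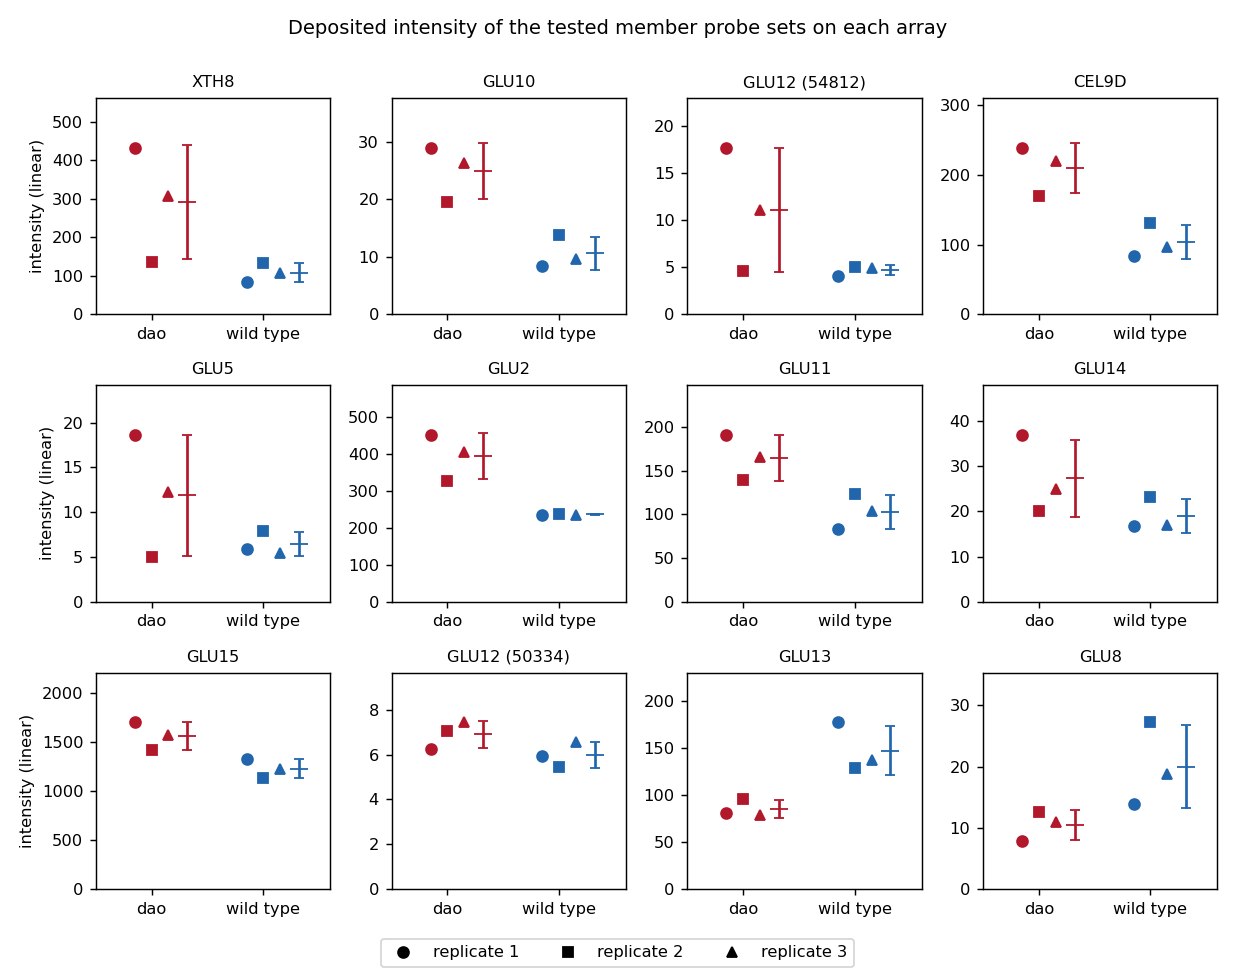
Deposited intensity (linear axis from 0, one scale per panel) of the 12 tested probe sets on the 3 dao arrays (red, left) and the 3 wild-type arrays (blue, right), with the mean and SD of each group beside the points. CEL9D and GLU10 do not overlap between groups, while XTH8, GLU5 and one GLU12 probe set have dao replicate 2 at the level of wild type. The number after GLU12 is part of its probe set name.

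GLU2 and GLU13 differed between the groups by the adjusted p but by less than 2-fold, in opposite directions. For each the adjusted p stayed at most 0.05 in 13 of 18 alternative settings. It was lost without either replicate 3, and without dao replicate 1 (0.0612 for GLU2 and 0.0854 for GLU13 in limma). The same held without both arrays numbered 1 (0.0567 for GLU2 and 0.0688 for GLU13) and without both numbered 3 (0.421 for each). Over all tested probe sets 9.89% passed the adjusted p at any size, 6.53% higher and 3.35% lower in dao, and among the 12 it was 3 higher (GLU10, CEL9D and GLU2) and 1 lower (GLU13). GLU2 had intensities of 450, 326 and 405 on the dao arrays, against 235, 238 and 235 in wild type. The wild-type arrays were thus nearly equal, and nearly all the spread was among the dao arrays (log2 0.72, SE 0.13, adjusted p = 0.0183 in limma).

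GLU13 was lower in dao, with 80.5, 95.9 and 79.1 on the dao arrays, against 177, 129 and 137 in wild type. All dao arrays lay below all wild-type arrays, with means of 85.2 ± 9.32 in dao and 147 ± 25.8 in wild type (SD, n = 3 each; log2 -0.78, SE 0.16, adjusted p = 0.0246 in limma). GLU8 also had every dao array under every wild-type array, at 7.78, 12.6 and 10.9 in dao and 13.9, 27.2 and 18.8 in wild type. The GLU8 signal was dim, and its log2 difference of -0.91 (95% interval -1.55 to -0.27) missed the threshold (adjusted p = 0.0777 in limma). Without wild-type replicate 1 it was -1.14 and past it (adjusted p = 0.0341), the only 1 of 17 alternatives where it passed. Without wild-type replicate 2 it was -0.66 (adjusted p = 0.146).

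GLU11 and GLU15 were higher on every dao array than on any wild-type array and did not pass. GLU11 had 191, 139 and 166 on the dao arrays, against 83.5, 123 and 104 in wild type (log2 0.68, SE 0.18, adjusted p = 0.0554). GLU15 had 1699, 1417 and 1569 on the dao arrays, against 1330, 1136 and 1221 in wild type (log2 0.34, SE 0.10, adjusted p = 0.0749). The GLU15 probe set carries the x suffix, which Affymetrix gives to sets whose probes can match other transcripts, so its signal may not come from GLU15 alone. In all, the groups did not overlap in 8 of the 12 probe sets, 6 with dao above and 2 with dao below. Over all tested probe sets such separation was seen in 17.9% with dao above and 13.5% with dao below.

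**Figure D2:**
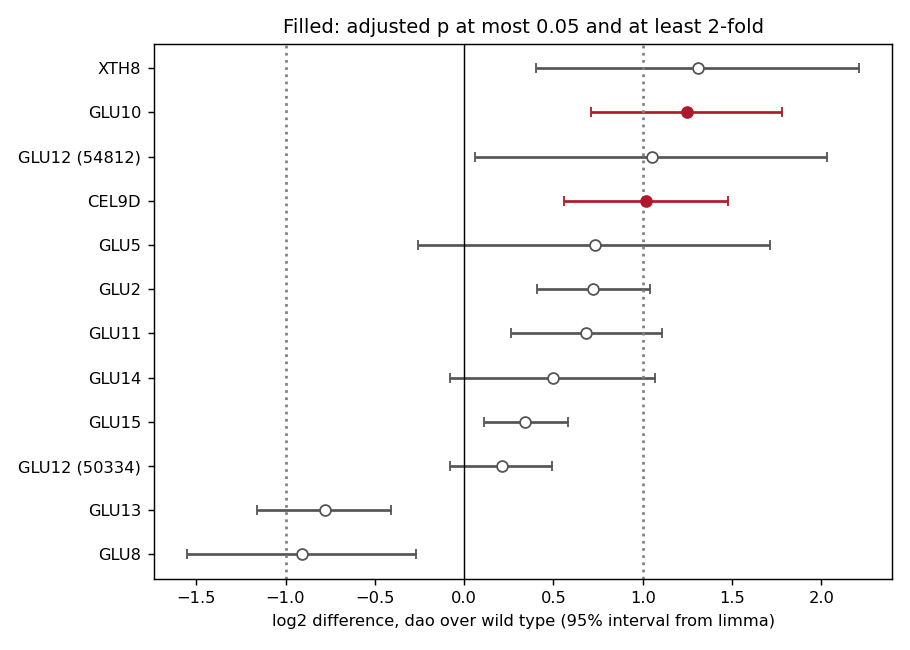
Log2 difference, dao over wild type, of the 12 tested probe sets with the 95% interval from limma, and dotted lines at the 2-fold limits. GLU10 and CEL9D (filled) passed, XTH8 has the highest value at 1.31 with an interval of 0.40 to 2.21, and GLU13 and GLU8 lie below 0.

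XTH8 had the highest log2 difference of the 12 and did not pass. It encodes a xyloglucan endotransglucosylase that is known to be induced by gibberellin in rice. Its intensity was 432, 137 and 307 on the dao arrays, against 82.9, 134 and 108 on the wild-type arrays. The lowest dao array, replicate 2, thus lay barely above the highest wild-type array, while the other dao arrays were well above. The means were 292 ± 148 in dao and 108 ± 25.4 in wild type (SD, n = 3 each; log2 1.31, SE 0.39, 95% interval 0.40 to 2.21, adjusted p = 0.0756 in limma). Without dao replicate 2 the log2 difference was 1.78 (adjusted p = 0.00705) and without dao replicate 1 it was 0.95 (adjusted p = 0.203), so the call turns on dao replicate 2.

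GLU5 and one probe set of GLU12 behaved likewise at far dimmer signals. GLU5, or CEL9A, is an endoglucanase with a carbohydrate-binding module known from auxin-induced lateral root primordia. It had 18.6, 5.02 and 12.3 on the dao arrays, against 5.87, 7.94 and 5.43 in wild type, so the groups overlapped (log2 0.73, 95% interval -0.26 to 1.71, adjusted p = 0.331). Without dao replicate 2 it was at log2 1.25 (adjusted p = 0.0198) and without dao replicate 1 at 0.31 (adjusted p = 0.712) in limma. The dao replicate 2 value is the most frequent value of the whole table, which occurs 1045 times.

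The GLU12 probe set numbered 54812 had 17.7, 4.56 and 11.1 on the dao arrays, against 4.09, 5.02 and 4.96 in wild type (log2 1.05, adjusted p = 0.165). In limma it was at 1.59 without dao replicate 2 (adjusted p = 0.00764) and at 0.61 without dao replicate 1 (adjusted p = 0.391). Its wild-type replicate 2 value, 5.02, is also the most frequent value of the table. The other GLU12 probe set, numbered 50334, had 6.25, 7.03 and 7.43 on the dao arrays, against 5.94, 5.44 and 6.57 in wild type (log2 0.21, adjusted p = 0.335). The probe sets of this gene therefore disagree in size, and both lie near the filter limit of 6.33. Their wild-type means, 4.69 for 54812 and 5.98 for 50334, are under it, so both were tested through their dao signal. GLU14, also named CEL9F, had 36.9, 20.1 and 25.0 on the dao arrays, against 16.7, 23.2 and 16.9 in wild type, and the groups overlapped (log2 0.50, adjusted p = 0.252).

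GLU6, CEL9C and CEL9E were under the filter limit. Intensities were 5.31 to 6.40 in dao and 5.11 to 6.74 in wild type for GLU6, and 4.97 to 5.88 in dao and 4.74 to 7.10 in wild type for CEL9E. For CEL9C they were 3.44 to 4.22 in dao and 3.12 to 3.91 in wild type. In the fit without a filter their log2 differences were 0.02, -0.05 and 0.11, in the order GLU6, CEL9E and CEL9C, with adjusted p from 0.701 to 0.958. The 95% intervals were -0.30 to 0.34 for GLU6, -0.41 to 0.31 for CEL9E and -0.16 to 0.37 for CEL9C, all within the 2-fold limits of this scale.

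GLU10 and CEL9D followed each other across the arrays. Their log2 intensities had a Pearson correlation of 0.9996 over the 6 arrays, and each was the probe set most like the other among all 34355 tested. The points share the same arrays, the 2 groups and replicate 3 values that lie between the others, and 3.60% of tested probe sets had a correlation above 0.95 with GLU10, so this is a description. The named genes next in likeness were TLP1 (0.9967) and the homeobox gene HOX15 (0.9955) for GLU10, and IAA1, of the Aux/IAA repressors of auxin response (0.9974), and TLP1 (0.9964) for CEL9D. DAO had a correlation of 0.98 with GLU10 and 0.99 with CEL9D. GLU11 was at 0.98 with GLU10, and GLU13 at -0.98.

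Several members shared an array order. In 7 of the 12 probe sets, of GLU2, XTH8, CEL9D, GLU10, GLU11, GLU14 and GLU12 (the probe set numbered 54812), the dao arrays ran 1 over 3 over 2 and the wild-type arrays 2 over 3 over 1, an order that 5.89% of all tested probe sets had. The dao and wild-type arrays numbered 2 were thus the closest and those numbered 1 the farthest apart.

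**Figure D3:**
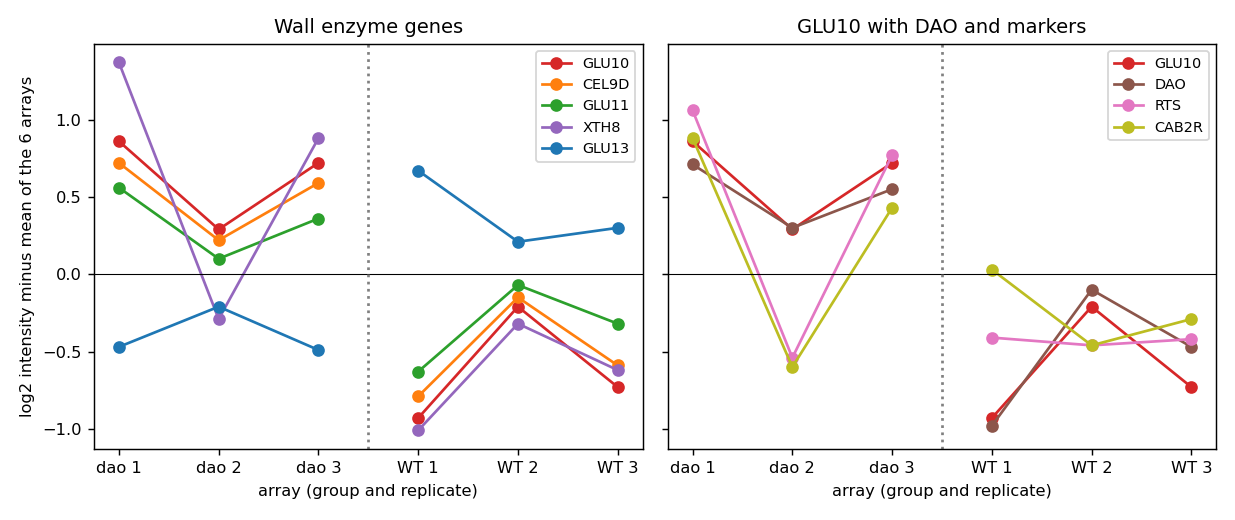
Log2 intensity minus its mean over the 6 arrays, for each dao array (left) and wild-type (WT) array (right); lines join arrays of a group only to guide the eye. GLU10, CEL9D and GLU11 run together with DAO, GLU13 runs the opposite way, and the tapetum gene RTS and the chlorophyll-binding protein gene CAB2R share the low dao replicate 2 of XTH8.

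Markers of other tissues also differed between arrays. The summed intensity of the 7 tapetum genes with a probe set was 5582, 1883 and 4526 on the dao arrays and 1973, 2052 and 2015 in wild type, most of it from RTS. The dao order of these sums was that of XTH8 and GLU10, an order that 31.1% of all tested probe sets had. None of the 6 tested tapetum genes passed (median log2 0.48). Correlations with GLU10 over the 6 arrays ran from 0.04 for RAFTIN1, which stood at log2 -0.36, through 0.65 for EAT1 and 0.78 for RTS, to 0.93 for C6, which encodes a tapetal lipid transfer protein (log2 1.63, adjusted p = 0.0524).

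The 3 photosynthesis genes with a probe set summed to 3574, 853 and 2607 on the dao arrays and 2338, 1060 and 1483 in wild type, and none of the 2 tested passed. RBCS is among them, and its probe set carries the x suffix. The 4 pistil and carpel genes summed to 787, 783 and 761 in dao and 515, 766 and 657 in wild type. Most of this came from MADS58, at 739, 743 and 717 in dao and 490, 744 and 631 in wild type. Of these genes 3 were tested, and the ovule gene MADS13 rose (log2 2.02, adjusted p = 0.00212 in limma). Its wild-type mean of 6.18 is under the filter limit, so it was tested through its dao signal. The carpel gene DL stood at log2 -0.09 (adjusted p = 0.785) and MADS58 at 0.26 (adjusted p = 0.325). No marker was listed at 0, and CYP703A3, RBCS1 and MADS21 were under the filter. The part of these tissues in the results for the wall enzymes was not tested, and in whole anthers more cells of a type and more RNA per cell cannot be told apart.

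Other genes of the wall were taken in lists by symbol. Of 57 tested genes in 6 lists, 1 passed, higher in dao, and 26 had an unadjusted p under 0.05, 21 higher and 5 lower. An unadjusted p under 0.05 was found for 33.1% of all tested genes, and the counts at this limit below are to be read against that share. Of the 15612 tested genes, each by its brightest probe set, 3.83% passed, 3.08% higher and 0.749% lower in dao. The gene that passed was CSLH1, a synthase of mixed-linkage glucan, the wall polymer of grasses. It had 457, 419 and 397 on the dao arrays, against 192, 198 and 201 in wild type (log2 1.10, SE 0.10, adjusted p = 0.00296 in limma), with no overlap and little spread within either group.

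Of 9 cellulose synthases, which make the chains that endoglucanases cut, 0 passed in limma and 4 had an unadjusted p under 0.05 (33.1% over all genes), all higher, with a median log2 difference of 0.16. CESA6 had 191, 75.8 and 133 in dao, against 50.7, 72.6 and 64.6 in wild type (log2 1.01, adjusted p = 0.0873), and CESA5 stood at log2 0.60 (adjusted p = 0.0469). Of 16 cellulose synthase-like genes, CSLH1 included, 5 had an unadjusted p under 0.05 and the median was 0.21. CSLC2 and CSLC7, of the family of xyloglucan backbone synthases, stood at 0.89 (adjusted p = 0.0201) and 0.67 (adjusted p = 0.0296) in limma, under the 2-fold limit. The CSLC7 probe set carries the x suffix, so its signal may not come from CSLC7 alone.

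Of 22 expansins, which loosen walls without cutting them, 0 passed in limma and 11 had an unadjusted p under 0.05, 8 higher and 3 lower, with a median of 0.17. On every dao array 10 were above and 3 below all wild-type arrays. Over all tested probe sets this was so for 17.9% above and 13.5% below, and the share over genes was not computed. Those with an adjusted p of at most 0.05 were EXPB6 (log2 0.96, adjusted p = 0.0160), EXLA1 (0.72, adjusted p = 0.0181) and EXPB2 (0.86, adjusted p = 0.0281), higher on every dao array, and EXPA26 (-0.37, adjusted p = 0.0436), lower on every dao array and named after its value was seen. Of 4 COBRA-like genes 0 passed and 3 had an unadjusted p under 0.05, with BC1L6 at log2 0.95 (adjusted p = 0.0495) and BC1 at -0.43, lower on every dao array (adjusted p = 0.179). Of 4 cell wall invertases 0 passed and 2 had an unadjusted p under 0.05, CIN3 at -0.66 and CIN7 at 0.52. The 2 pectin genes found by name, both of pectin methylesterase inhibitors, did not pass, with PMEI28 at 1.01 (adjusted p = 0.0556). No 1,3- or mixed-linkage glucanase was found by name.

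**Figure D4:**
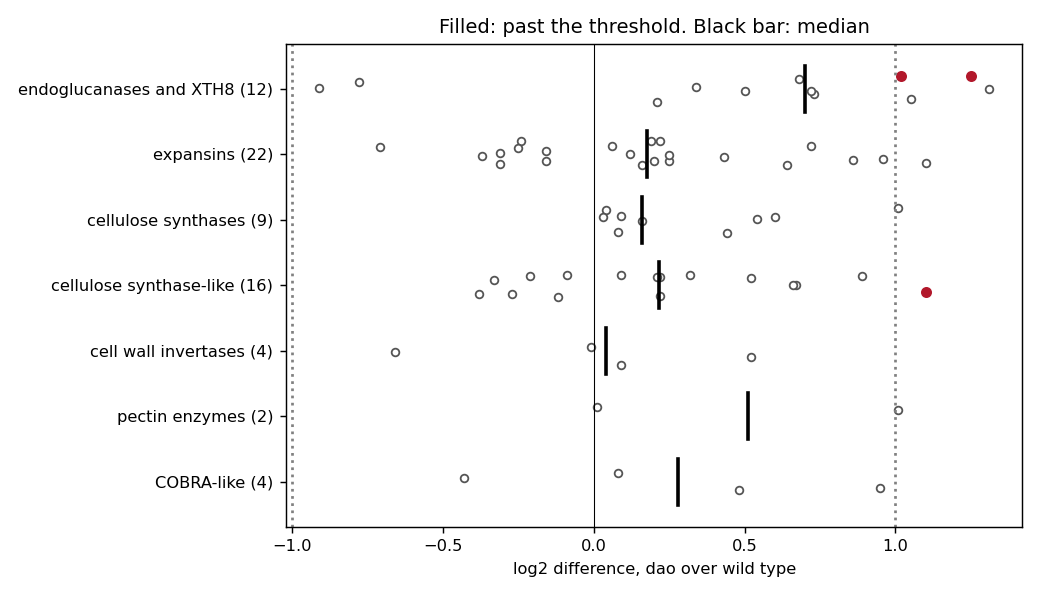
Log2 difference, dao over wild type, of each tested gene (of each tested probe set in the top row), with the number per row in parentheses, medians as black bars and dotted lines at the 2-fold limits. The median is 0.70 for the endoglucanases and XTH8 and lies between 0.04 and 0.51 in the other lists, with GLU10, CEL9D and CSLH1 filled as past the threshold.

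The calls for GLU10 and CEL9D were kept in 12 and 10 of 18 alternative settings, and their direction in all 18. Over these settings the log2 difference ran from 0.42 to 1.62 for GLU10 and from 0.78 to 1.34 for CEL9D. Without both arrays numbered 3 GLU10 stood at 1.14 (adjusted p = 0.385) and CEL9D at 0.94 (adjusted p = 0.421).

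**Figure D5:**
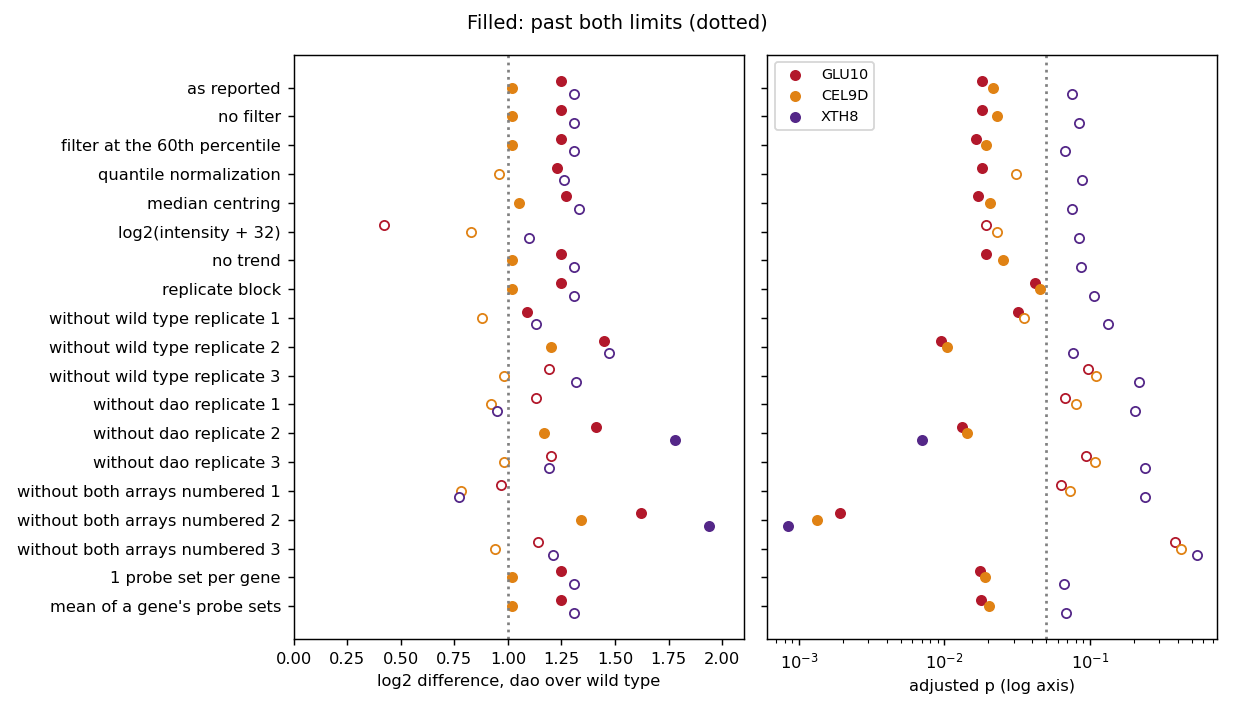
Log2 difference, dao over wild type (left), and adjusted p on a log axis (right) of GLU10, CEL9D and XTH8 in the fit as reported and in 18 alternatives, with dotted lines at the limits and filled points past both. XTH8 passes only where dao replicate 2 is left out, alone or with wild-type replicate 2.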

How the data were processed

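The authors deposited linear intensities of 57381 probe sets, 1 value for each array. MAS5 is named, with no version, in the submitters' processing notes. How background was removed is not stated there, and 7.82% to 9.33% of the values on an array recur on another. Detection calls were not used, so folds of dim genes are uncertain. After 123 AFFX controls were left out, probe sets under the 40th percentile of the mean log2 intensity were removed. Groups were compared by limma 3.58.1 under R 4.3.3 (lmFit, eBayes with trend, 2-sided, group only, Benjamini-Hochberg over 34355 probe sets), with the 2-fold and 0.05 limits of the series' design text. Probe sets were paired with genes through the platform annotation, and 17905 genes were named by Entrez ID from assembly ASM3414082v1. Of the symbol matches, an aquaporin named TIP2 and a bHLH gene named BC1 were left out of the lists. On simulated data for this comparison (34355 probe sets) the fit recovered 44.4% of 54 probe sets changed 2-fold and 84.4% of 45 changed 3-fold, with 2 false calls. The 54 lie at the 2-fold limit itself. Whether these values hold for the deposited arrays, where replicate 3 may not be independent, was not tested.

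Named were all member genes, DAO, up to 3 genes per wall list with the smallest adjusted p, marker genes, and the 3 named genes most correlated with GLU10 and CEL9D. The members and lists were chosen with earlier results of these data known. Alternatives were 2 other filters, 2 scalings, log2(intensity + 32), no trend, a replicate block, arrays left out, and 1 value per gene.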

Additional observations from a re-analysis of the deposited data

How the results depend on the processing

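The count of probe sets past the threshold was 1157, and 405 with log2(intensity + 32), 616 with 1 probe set per gene, 573 with probe sets averaged per gene, 278 to 1684 without 1 array (278 without wild-type and 298 without dao replicate 3), 2222 without the pair numbered 2 and 0 without the pair numbered 3 (limma, lowest adjusted p 0.163). The count of member probe sets past it was 2, and 1 with quantile normalization, 0 with log2(intensity + 32), 0 to 5 without 1 array, 0, 5 and 0 on leaving out the pairs numbered 1, 2 and 3, with 9 at an unadjusted p under 0.05 on log2(intensity + 32), 7 without the number 1 arrays, 4 without the number 3 arrays and 8 without dao replicate 1 or either replicate 3. The count of wall list genes was 1, and 2 with the filter at the 60th percentile, with median centring and with 1 probe set per gene, 0 with log2(intensity + 32) (26 at an unadjusted p under 0.05), 1 to 7 without 1 array, and 2, 7 and 0 without both arrays numbered 1, 2 and 3 (9 at an unadjusted p under 0.05 in the last). The member counts at an unadjusted p under 0.05 are to be read against all 34355 tested probe sets. Of these, 8917 were under it in limma on log2(intensity + 32), 8354 without the number 1 arrays and 3481 without the number 3 arrays. Without dao replicate 1 it was 6851, without dao replicate 3 it was 6284 and without wild-type replicate 3 it was 6346. For the wall lists the count over all genes was not made in these settings. No member difference changed sign in any setting that tested it. The cause of the moved counts was not tested. Fewer arrays or values enter where arrays are left out or genes are averaged, and with arrays left out the counts moved both ways. With the replicate block 1136 probe sets and 2 member probe sets passed. In that fit GLU8 (log2 -0.91, adjusted p = 0.0213) and GLU15 (0.34, adjusted p = 0.0316) also met the adjusted p in limma, under the 2-fold limit. Deviations of same-numbered arrays correlated at 0.25, 0.181 and 0.087 for numbers 1, 2 and 3. Each dao array thus correlated best with the wild-type array of its number, while wild-type replicate 3 correlated best with dao replicate 2 (0.133). Whether the numbers pair the samples is not settled by this, and the fit as reported does not pair them.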
